A study of Rattus norvegicus with 15 samples.

Results

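Superoxide dismutases, metallothioneins, heme oxygenases and the quinone reductase Nqo1 were followed in cultured rat dorsal root ganglion (DRG) cells exposed to dibutyryl cAMP (dbcAMP), a form of cAMP that crosses cell membranes. The members were all array probes whose platform annotation gives the symbol Sod1, Sod2, Sod3, Mt1, Mt3, Hmox1, Hmox2 or Nqo1. This gave 10 probes of 8 genes, of 5088 probes and 4153 named genes in all. Mt1 had 3 probes and each other gene had 1, and all 10 had a ratio on every array.

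Cells dissociated from the L4 and L5 ganglia of juvenile rats were kept in Sato medium with 1.5 mM dbcAMP, or in medium alone as the control. The sources used here give neither strain nor sex. Each of the 15 arrays compared treated RNA, labeled with Cy5, with control RNA, labeled with Cy3, after 1, 3, 6, 12 or 18 h, with 3 arrays at each time. The label of the earliest group reads 1 h, although the protocol text lists 0 h, and the coating of the dish (poly-L-lysine or myelin) is not stated for each array. These cultures hold neurons together with glia and other ganglion cells, so a change in the number of cells of a type and a change of mRNA per cell cannot be told apart. The dyes were never exchanged. At a single time, a constant preference of a probe for a dye and an early response to dbcAMP therefore cannot be told apart. Such a preference drops out of a difference between times only where the arrays share a common scale.

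Values below are log2 ratios of treated over control, where 0 is no difference and 1 is a 2-fold higher ratio. A probe is called higher or lower at a time when its mean over the 3 arrays differed from 0 with an adjusted p under 0.05 in limma, with 1 fit across all arrays and Benjamini-Hochberg adjustment over all probes tested. Whether the 3 arrays of 1 time stand for 3 cultures is not stated, and p-values therefore rest on an array-to-array spread that may be technical. Arrays were uneven in width. The SD over all probes was 0.357 to 0.434 on 9 arrays but 0.627 to 0.703 on array 3 of 6 h, arrays 1 and 2 of 12 h and all 3 arrays of 18 h.

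As background, superoxide dismutases turn superoxide into hydrogen peroxide and oxygen, and they differ in where they work: Sod1 mainly in the cytosol, Sod2 in the mitochondrial matrix and Sod3 outside the cell. Metallothioneins are small cysteine-rich proteins that bind zinc and copper. Mt1 is made in most tissues and is induced by metals, and Mt3 is best known from the nervous system, where it was first described as an inhibitor of neuronal growth. Hmox1 and Hmox2 are the inducible and the constitutive heme oxygenase, which break heme down to biliverdin, carbon monoxide and iron, and Nqo1 reduces quinones. Hmox1 and Nqo1 are textbook targets of the transcription factor NRF2, which binds antioxidant response elements, and metallothionein genes are textbook targets of MTF1, which binds metal response elements.

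RefSeq promoters of the GRCr8 assembly, from 250 bases before to 50 bases after the start site, were at hand for 6 of the 8 genes: Sod1, Sod2, Mt1, Mt3, Hmox2 (with 2 start sites) and Nqo1. The metallothioneins are shown because each held the metal response element core several times. The 250 bases before the start site are printed 5′ to 3′, with matches to the metal response element core in capitals. The core was searched as TGCACNC or TGCGCNC on both strands. The Mt1 stretch is chr19:10832976-10833225, minus strand, and the Mt3 stretch is chr19:10856081-10856330, minus strand.
Mt1: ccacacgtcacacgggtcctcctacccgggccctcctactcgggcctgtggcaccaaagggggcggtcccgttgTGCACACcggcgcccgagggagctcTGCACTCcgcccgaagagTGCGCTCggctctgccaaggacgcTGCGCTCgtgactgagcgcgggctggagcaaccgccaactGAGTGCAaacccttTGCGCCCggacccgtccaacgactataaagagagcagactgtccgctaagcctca
Mt3: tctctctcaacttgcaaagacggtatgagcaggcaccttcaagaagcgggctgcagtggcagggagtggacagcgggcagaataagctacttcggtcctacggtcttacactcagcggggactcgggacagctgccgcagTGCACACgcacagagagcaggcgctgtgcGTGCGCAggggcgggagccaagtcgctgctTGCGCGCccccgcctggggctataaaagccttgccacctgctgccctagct

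Mt1 held 6 matches to the metal response element core, with first bases at -176, -151, -133, -109, -69 and -55 from the start site. Of 33469 promoters in the table, 24.2% held the core at least once, 1.68% at least 3 times and 0.0388% at least 6 times. Mt3 held 3, at -110, -81 and -51. The core of the antioxidant response element, searched as TGACNNNGC, occurs in 12.1% of promoters. It was found once in Mt1 at -101, once in Sod2 at -35 and once at 1 of the 2 Hmox2 starts at -95, where 2 overlapping metal response element matches lay at -16 and -15. TGACG, the short form of the cAMP response element, occurs in 21.2% of promoters and was found in Mt1 at -245 and Sod1 at -229. The full element TGACGTCA (1.83% of promoters) and the AP-1 site TGANTCA (7.33%) had no match in these promoters, and Nqo1 had no match to any of the motifs. The letters alone do not show that a factor binds there. Sequence outside this window was not searched, so a missing match does not mean that a gene lacks such an element.

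**Figure D1:**
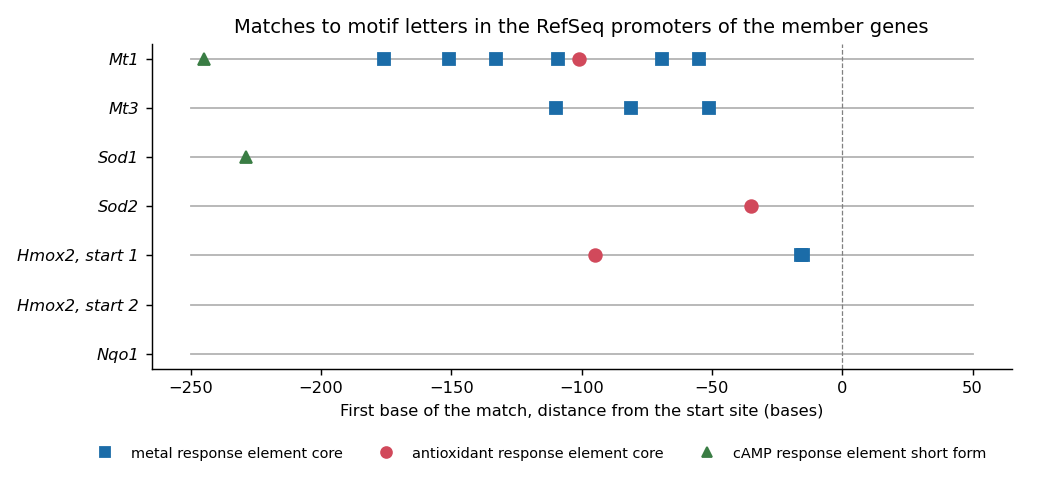
Positions of motif matches in the RefSeq promoters of 6 member genes. The horizontal axis is the distance of the first base of a match from the start site in bases, each line is a promoter, and symbols mark the metal response element core, the antioxidant response element core and the short cAMP response element. Mt1 holds 6 metal response element matches and Mt3 holds 3.

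Of the superoxide dismutases, Sod3 was called higher at 6, 12 and 18 h. Its ratio was near 0 at 1 h, intermediate at 3 h and close to 1 at 6, 12 and 18 h, whereas Sod1 never left the neighborhood of 0 and Sod2 was called at 12 h only. For comparison, 1.84% of all probes tested were called higher and 2.35% lower at 6 h, against 3.81% and 4.77% at 12 h and 10.6% and 11.3% at 18 h.

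The 3 arrays of Sod3 (probe 1G03) gave 0.14, -0.10 and 0.11 at 1 h, 0.37, 0.22 and 0.36 at 3 h, 0.88, 0.90 and 0.89 at 6 h, 0.95, 1.10 and 1.14 at 12 h and 0.94, 1.02 and 0.96 at 18 h. All arrays from 6 h on stood above all arrays of 1 and 3 h, while those of 12 and 18 h overlapped. The means of 0.89 ± 0.01 at 6 h, 1.06 ± 0.10 at 12 h and 0.97 ± 0.04 at 18 h (SD, n = 3) had limma adjusted p-values of 8.69e-05, 1.25e-05 and 8.23e-06. At 3 h the mean was 0.32 (adjusted p = 0.0885). The 18 h mean is a 1.96-fold ratio. The difference between 18 and 12 h was -0.09 (95% interval -0.36 to 0.18).

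Sod2 (probe 27B04) gave -0.10, 0.16 and 0.09 at 1 h, 0.18, 0.26 and 0.37 at 3 h, 0.96, -0.02 and 0.01 at 6 h, 0.56, 0.69 and 0.63 at 12 h and 0.61, 0.26 and 0.39 at 18 h. At 6 h a single array stood apart from the rest, and at 3, 12 and 18 h all arrays were above 0. The mean of 0.63 ± 0.06 (SD, n = 3) at 12 h had a limma adjusted p of 0.027, and that of 0.42 ± 0.18 at 18 h one of 0.0745. The 12 h call was lost when any 1 of its 3 arrays was left out, with adjusted p-values of 0.0669 to 0.112.

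Sod1 (probe 1G02) stayed between -0.22 and 0.16 on the 15 arrays, 8 above and 7 below 0. Its mean ran from -0.08 at 12 h to 0.08 at 18 h. The difference between 18 and 1 h was 0.04 with a 95% interval of -0.25 to 0.33, so at this precision a rise of the size seen for Sod3 lies outside the interval.

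**Figure D2:**
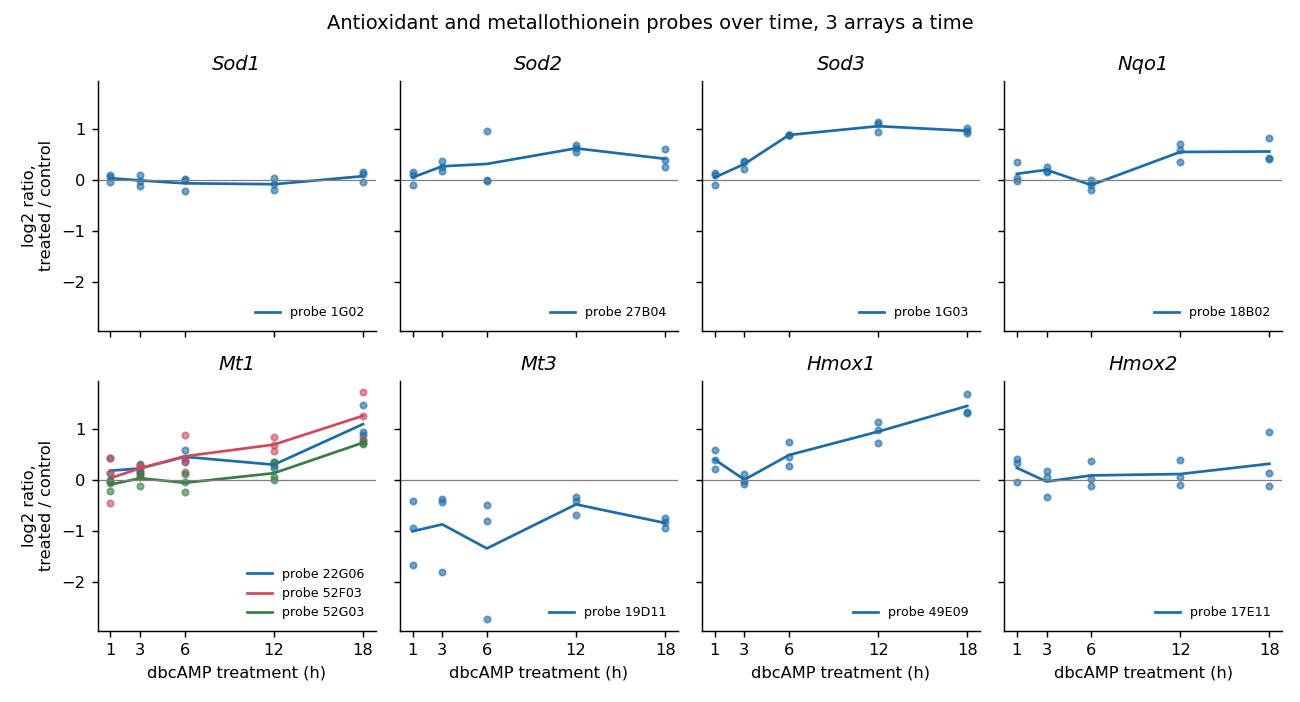
Log2 ratio of treated over control (vertical axis) against hours of dbcAMP (horizontal axis) for the 10 member probes. Points are single arrays, 3 at each time, lines join the means, and the 3 probes of Mt1 share a panel. Sod3 is near 0.9 or above from 6 h on, the Mt1 probes and Hmox1 are highest at 18 h, and every Mt3 point is below 0.

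The metallothioneins differed in their calls, and Mt1 and Mt3 were not compared by a test. All 3 Mt1 probes were called higher at 18 h, probe 52F03 of them also at 12 h, and the Mt3 probe was below 0 on 15 of 15 arrays from the first time on without being called at any time.

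Probe 22G06 of Mt1 gave 0.43, -0.03 and 0.15 at 1 h, 0.16, 0.21 and 0.32 at 3 h, 0.35, 0.43 and 0.59 at 6 h, 0.37, 0.24 and 0.31 at 12 h and 0.89, 1.47 and 0.95 at 18 h. Each array of 18 h lay above each array of the other times. The mean at 18 h was 1.10 ± 0.32 (SD, n = 3, limma adjusted p = 4.74e-05), a 2.15-fold ratio, after 0.46 at 6 h (adjusted p = 0.0565) and then 0.30 at 12 h (adjusted p = 0.156).

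Probe 52F03 gave 0.43, 0.14 and -0.45 at 1 h, 0.11, 0.29 and 0.30 at 3 h, 0.37, 0.16 and 0.88 at 6 h, 0.69, 0.57 and 0.84 at 12 h and 1.27, 1.73 and 0.81 at 18 h. Its arrays of 18 h were the least even of the 3 Mt1 probes and overlapped those of 12 h. The mean was 0.70 at 12 h (limma adjusted p = 0.0361) and 1.27 ± 0.46 (SD, n = 3) at 18 h (adjusted p = 0.000404), a 2.41-fold ratio. The 12 h call was lost without any 1 of the 3 arrays of that time (adjusted p = 0.0869 to 0.137).

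Probe 52G03 gave -0.05, -0.01 and -0.21 at 1 h, -0.11, 0.07 and 0.15 at 3 h, -0.04, 0.12 and -0.24 at 6 h, 0.06, 0.35 and -0.00 at 12 h and 0.73, 0.77 and 0.71 at 18 h. All of its early arrays lay around 0, and the 3 arrays of 18 h were nearly equal. The mean at 18 h was 0.74 ± 0.03 (SD, n = 3, limma adjusted p = 0.000295), a 1.67-fold ratio, and at 12 h it was 0.14 (adjusted p = 0.475).

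The 3 Mt1 probes thus agreed on a call at 18 h and disagreed at 12 h. Over the 15 arrays their log2 ratios correlated with r of 0.84 (22G06 and 52F03), 0.78 (22G06 and 52G03) and 0.71 (52F03 and 52G03). They share the RNA of each array and are not replicates. Probes 52F03 and 52G03 are annotated to the same transcript record and lie on the same print plate, whose median over its 96 probes was -0.34 at 18 h. Relative to their plate medians the 18 h values were 1.60 for 52F03 and 1.07 for 52G03, and 0.86 for 22G06, whose plate had a median of 0.22. Mt1 has a closely related paralog, Mt2A, for which no probe is named in the annotation used here. Probe sequences were not compared, so whether these probes also detect Mt2A, and how much of their signal it gives, could not be told.

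Mt3 (probe 19D11) gave -0.94, -1.68 and -0.41 at 1 h, -0.38, -0.43 and -1.81 at 3 h, -2.75, -0.80 and -0.50 at 6 h, -0.68, -0.34 and -0.42 at 12 h and -0.83, -0.75 and -0.95 at 18 h. The arrays were wide apart at 1, 3 and 6 h and closer at 12 and 18 h. The mean was -1.01 at 1 h (limma adjusted p = 0.288), -1.35 at 6 h (adjusted p = 0.0635) and -0.85 ± 0.10 (SD, n = 3) at 18 h (adjusted p = 0.121). As the ratio was low from 1 h, a dye preference of the probe and a lower Mt3 mRNA in treated cells cannot be told apart. The difference between 18 and 1 h was 0.16 with an interval of -0.97 to 1.29, too wide to exclude a change of the size seen for Mt1.

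Among the heme oxygenases, Hmox1 rose and Hmox2 was not called at any time. Hmox1 had the highest 18 h mean of the 10 probes, and at 12 and 18 h its lowest array was at 0.73. Nqo1 was called at 12 and 18 h with a smaller ratio.

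Hmox1 (probe 49E09) gave 0.60, 0.21 and 0.40 at 1 h, -0.07, 0.11 and -0.01 at 3 h, 0.46, 0.27 and 0.75 at 6 h, 1.15, 0.73 and 0.99 at 12 h and 1.71, 1.33 and 1.35 at 18 h. The arrays of 1 h all lay above those of 3 h, and those of 18 h lay above all others. The mean was 0.40 at 1 h (limma adjusted p = 0.153), 0.01 at 3 h, 0.49 at 6 h (adjusted p = 0.0436), 0.96 ± 0.21 at 12 h (adjusted p = 0.000557) and 1.46 ± 0.21 at 18 h (SD, n = 3, adjusted p = 5.59e-06). The 18 h value is a 2.75-fold ratio. The call at 6 h was lost without any 1 of its 3 arrays, with adjusted p-values of 0.0519 to 0.314.

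Hmox2 (probe 17E11) ranged from -0.33 to 0.95 over the 15 arrays with a median of 0.07. At 18 h its arrays stood at 0.95, 0.14 and -0.13, so the mean of 0.32 (limma adjusted p = 0.244) came mostly from 1 array. The difference between 18 and 1 h was 0.08 (95% interval -0.49 to 0.65).

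Nqo1 (probe 18B02) gave 0.35, 0.04 and -0.02 at 1 h, 0.26, 0.16 and 0.18 at 3 h, -0.20, 0.00 and -0.09 at 6 h, 0.36, 0.60 and 0.70 at 12 h and 0.42, 0.44 and 0.83 at 18 h. Its arrays of 12 and 18 h stood above all those of the earlier times, and no array of 6 h was clearly above 0. The means of 0.55 ± 0.18 at 12 h and 0.56 ± 0.23 at 18 h (SD, n = 3) had limma adjusted p-values of 0.00889 and 0.00322, and the 18 h ratio was 1.48-fold.

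Over the 10 probes, the number called higher was 0 at 1 h, 0 at 3 h, 2 at 6 h, 5 at 12 h and 6 at 18 h, and none was called lower at any time (limma). The members were chosen with earlier results of these data known, so these counts beside the background are a description. At an unadjusted p under 0.05 in the same fit, Hmox1 was higher at 1 h, Sod3 was higher at 3 h and Mt3 was lower at 1, 3, 6 and 18 h. The share of all probes past that threshold was not counted. By the methods' t-test, on the arrays of a time alone, 0 probes at 1 h, 4 at 3 h, 2 at 6 h, 7 at 12 h and 6 at 18 h had an unadjusted p under 0.05. All were higher except Mt3, which was lower at 12 and 18 h, and Nqo1 was not among those of 18 h. Of all probes tested, 654 of 5055 at 1 h, 758 of 5050 at 3 h and 461 of 5058 at 6 h passed that unadjusted test. At 12 h 489 of 5014 passed it, and at 18 h 907 of 5006. After adjustment the methods' t-test called no member probe at any time. The background of limma calls at 1 h was 0.732% of all probes higher and 1.60% lower, and at 3 h it was 0.931% and 1.94%. The 6 h calls were Sod3 and Hmox1. The 12 h calls were Sod2, Sod3, Mt1 (52F03), Hmox1 and Nqo1, and the 18 h calls were Sod3, Hmox1, Nqo1 and the 3 Mt1 probes. The median of the 10 means was 0.05 at 1 h, 0.12 at 3 h, 0.20 at 6 h, 0.43 at 12 h and 0.65 at 18 h, beside medians over all probes between -0.00 and 0.02. Mt1 enters the median of the 10 with 3 probes and each other gene with 1. With all arrays scaled to a common spread the 18 h values shrank, to 0.64 for Sod3, 0.73, 0.83 and 0.48 for Mt1, 0.95 for Hmox1 and 0.37 for Nqo1, which was then no longer called (adjusted p = 0.0919). From the 3 arrays of 18 h alone, 2 of the 6 were called, Sod3 and Hmox1, where 183 of 5006 probes were called in all.

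Differences between times address when a ratio changed, and each time is set against its own control. A constant dye preference drops out of them only where the arrays share a scale. The arrays of 18 h were all wide and those of 1 h were not, so array width and time cannot be told apart in that difference. Between 1 and 18 h, 5 of the 10 probes rose and 0 fell (0 also at an unadjusted p under 0.05), where 1.18% of all probes rose and 1.56% fell (limma). The 5 belong to Sod3, Hmox1 and Mt1 only, and the Mt1 probes are not replicates. As the members were chosen with earlier results of these data known, this count beside the background is a description. The rise was 0.92 (95% interval 0.65 to 1.19, adjusted p = 0.00159) for Sod3 and 1.06 (0.67 to 1.44, adjusted p = 0.00753) for Hmox1. For Mt1 it was 0.92 (0.54 to 1.29, adjusted p = 0.0139) with probe 22G06, 1.23 (0.66 to 1.80, adjusted p = 0.0256) with 52F03 and 0.83 (0.51 to 1.14, adjusted p = 0.0117) with 52G03. Nqo1 differed by 0.44 (0.09 to 0.79, adjusted p = 0.181) and Sod2 by 0.37 (-0.12 to 0.85, adjusted p = 0.447). None of the 5 was called when the arrays were scaled to a common spread, nor when all arrays of any 1 replicate number were left out.

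**Figure D3:**
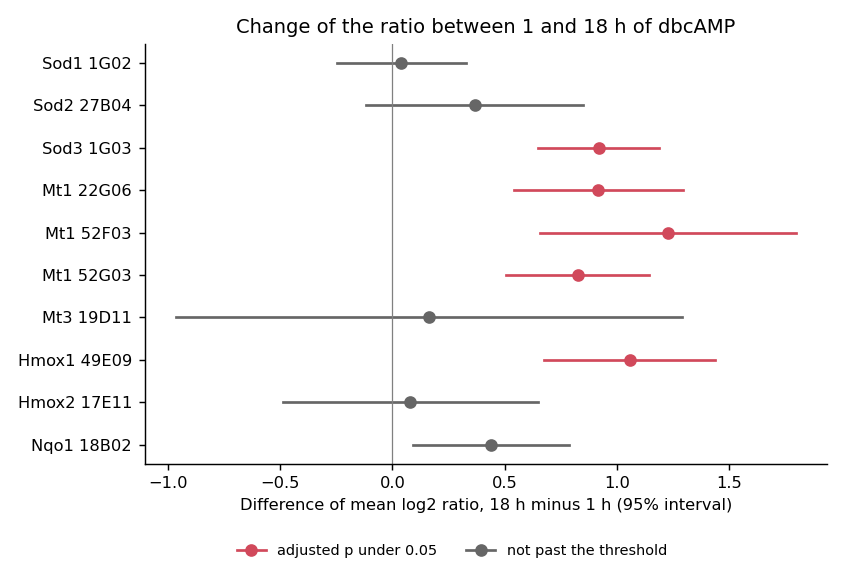
Difference of the mean log2 ratio between 18 h and 1 h for each member probe (horizontal axis), with points for the estimate, bars for the 95% interval and color for the call by limma. The intervals of Sod3, the 3 Mt1 probes and Hmox1 lie above 0.5, those of Sod1, Sod2, Mt3 and Hmox2 include 0, and that of Nqo1 starts at 0.09 without a call after adjustment.

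When Sod3, Mt1 and Hmox1 changed was examined with 2 further comparisons, chosen after the values had been seen. Between 1 and 6 h, Sod3 rose by 0.84 (95% interval 0.57 to 1.11, limma adjusted p = 0.0164) and was 1 of the 0.0992% of probes that rose, against 0.0397% that fell. Over the same span Mt1 differed by 0.27, 0.43 and 0.03 with its 3 probes, and Hmox1 by 0.09 (adjusted p = 0.999). Between 12 and 18 h 0 members were called by limma, where 0.201% of all probes rose and 0.421% fell. At an unadjusted p under 0.05 in that fit 3 members were higher, and the share of all probes at that threshold was not counted. These 3 were the Mt1 probes 22G06 and 52G03 and Hmox1. In that span Mt1 differed by 0.80 (0.42 to 1.17, adjusted p = 0.0578) with probe 22G06, 0.60 (0.28 to 0.92, adjusted p = 0.0804) with 52G03 and 0.57 (adjusted p = 0.348) with 52F03. Hmox1 differed by 0.51 (0.12 to 0.89, adjusted p = 0.206) and Nqo1 by 0.01. Whether Sod3 and Mt1 differ in timing was not tested as such. The F test for any difference among the 5 times called 1.87% of all probes and 4 of the 10 members: Sod3 (adjusted p = 0.00162), Hmox1 (adjusted p = 0.00467) and the Mt1 probes 52G03 (adjusted p = 0.0356) and 22G06 (adjusted p = 0.0457). The call of Sod3 between 1 and 6 h was lost without the wide arrays of 6 and 12 h, after scaling to a common spread, and without all arrays of any 1 replicate number, where the F test called no member either.

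Genes of the same pathways, members included, were read at 18 h, each gene counted as called when a probe of it was. The counts below thus hold the member calls given above, and Hmox1 enters both the heme and iron list and the NRF2 list. The lists are described by counts and medians and were not tested as sets. Beside them stand the 10.6% of all probes called higher, the 11.3% called lower and the median of 0.01 over all probes. Where a list had 0 genes lower, the number at an unadjusted p under 0.05 is given too. The 10.6% and 11.3% hold for adjusted calls only. The share of all probes at an unadjusted p in limma was not counted, so the unadjusted numbers have no background. Of 17 measured genes that remove superoxide or peroxide, 2 were higher and 0 lower (limma, 9 and 0 at an unadjusted p under 0.05), with a median log2 ratio of 0.27. They were Sod3 and Prdx1, a peroxiredoxin that reduces hydrogen peroxide, at 0.32 ± 0.10 (SD, n = 3, limma adjusted p = 0.0344). Of 10 measured genes of metallothioneins and metal transport, 3 were higher and 0 lower (limma, 4 and 2 at an unadjusted p under 0.05), with a median of 0.25. Beside Mt1 these were Slc31a1, the plasma membrane copper importer, at 0.80 (adjusted p = 0.0043), and Atp7a, a copper-exporting ATPase, at 0.80 with an SD of 0.71 (adjusted p = 0.0166).

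Of 13 measured genes of heme and iron handling, 4 were higher and 0 lower (limma, 4 and 0 at an unadjusted p under 0.05), with a median of 0.24. Hmox1 was joined by Fth1, the ferritin heavy chain that stores iron, at 0.57 ± 0.10 (SD, n = 3, limma adjusted p = 0.000649), by Ireb2, an iron-sensing RNA-binding protein, at 0.39 (adjusted p = 0.0329), and by Alad, an enzyme of heme synthesis, at 0.39 (adjusted p = 0.0363). Of 25 measured genes of the NRF2 system and its textbook targets, 5 were higher and 0 lower (limma, 9 and 2 at an unadjusted p under 0.05), and the median was 0.09. With Hmox1 and Nqo1 these were Cbr1, a carbonyl reductase, at 0.90 (adjusted p = 0.000299), Mgst1, a microsomal glutathione transferase, at 0.59 (adjusted p = 0.00803), and Ugt1a6, a glucuronosyltransferase, at 0.50 (adjusted p = 0.0219, and 0.36 at 1 h). The other 20 genes of this list were not called at 18 h. At earlier times the list also held genes called lower: 3 at 1 h, 2 at 3 h, 1 at 6 h and 1 at 12 h. The numbers called higher were 0, 0, 2 and 3 at these times. Of all probes, 1.6%, 1.94%, 2.35% and 4.77% were called lower at these times, and 0.732%, 0.931%, 1.84% and 3.81% higher.

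Enzymes that make superoxide or nitric oxide went both ways, with 2 of 11 measured genes higher and 3 lower, and 1 gene in both counts. Nos2, the inducible nitric oxide synthase, was at 1.00 ± 0.20 (SD, n = 3, limma adjusted p = 0.00136). Ncf1, a cytosolic subunit of the phagocyte NADPH oxidase, was at -2.45 with an SD of 1.82 (adjusted p = 0.00147), and Duox2, a dual oxidase, at -0.97 with an SD of 0.84 (adjusted p = 0.00973). The 2 called probes of Nos3, the endothelial synthase, disagreed, at 0.80 for 11H09 and -0.83 for 52A02, the latter from the same plate as 2 of the Mt1 probes.

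**Figure D4:**
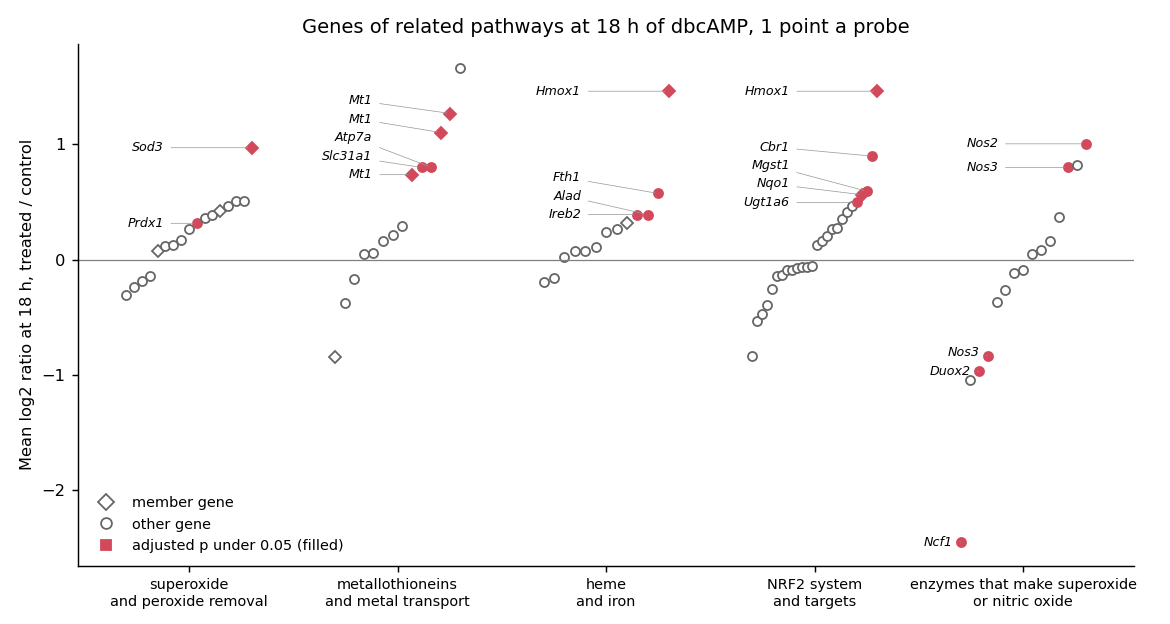
Mean log2 ratio at 18 h (vertical axis) for the probes of 5 gene lists (columns), sorted within each list, 1 point for each probe. Diamonds are member genes and circles other genes, and filled red symbols passed an adjusted p of 0.05 in limma. Hmox1, Mt1 and Sod3 stand at or near the top of their lists, and the lists hold many genes near 0.

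Markers of the cell types of a ganglion culture were read at 18 h beside the same background of 10.6% of probes higher and 11.3% lower. Of 35 measured marker genes, 2 were called higher and 7 lower, together 25.7%. The share called lower was above that background and the share called higher was below it. A gene counted when any probe of it was called, whereas the background counts probes. A ratio within an array holds no level, so the presence of each cell type could not be read from these data. Of sensory neuron markers 1 of 9 measured genes was lower (Uchl1 at -0.84) and 1 higher (Nefl). The called Nefl probe was at 1.03 with an SD of 1.00, and already at 0.89 at 1 h. The other Nefl probe was at -0.01 and not called. Of Schwann cell and satellite glia markers 2 of 8 were lower, S100b and Ngfr. S100b was at -0.36 on its called probe, and Ngfr at -0.83 and -0.43 on its 2 probes. Of fibroblast markers 3 of 8 were lower (Col1a1 at -0.53 on its called probe, Dcn at -0.42 and Vim at -0.40). Among them 1 was higher (Pdgfra at 0.85 with an SD of 0.89). The other probes of S100b and Col1a1 were at -0.17 and -0.14 and not called. Of macrophage markers 1 of 5 was lower (Lyz2 at -0.56), and of endothelial markers 0 of 5 were called by limma, with 2 higher at an unadjusted p under 0.05. The share of all probes at that unadjusted threshold was not counted. The medians of these lists were -0.11, 0.05, -0.19, -0.47 and 0.18, in this order. Their part in the ratios of the member genes was not tested.

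The probes whose log2 ratios were most like those of a member over the 15 arrays are given as a description. The arrays are shared between the probes and include the 6 wide ones, and 4271 named probes were compared (4269 for Mt1). Sod3 was most like Fth1 (r = 0.90), Cbr1 (r = 0.90) and Cacna1e (r = 0.86), a calcium channel subunit. All 3 of these, like Sod3, were called from 6 h on, at 0.41, 0.69 and 0.69 at 6 h. They were picked for likeness on these same arrays, so the shared calls are no separate result. Mt1 (22G06) was most like Fst (r = 0.88), Ctf1 (r = 0.87) and Slc31a1 (r = 0.87), which encode follistatin, the cytokine cardiotrophin-1 and the copper importer. These stood at 0.89, 0.79 and 0.80 at 18 h and at -0.09, -0.15 and -0.16 at 12 h. Hmox1 was most like Srgn (r = 0.88), Cd24 (r = 0.87) and Prdx1 (r = 0.86), and Nqo1 was most like Srcin1 (r = 0.89), Eef2k (r = 0.87) and Cd24 (r = 0.78). The probes of Fth1, Cacna1e and Slc31a1 share a print plate, as do those of Srgn and Cd24, and a part of print position was not tested. For the members that were not called at 18 h the closest probes were Tnni1 for Sod1 (r = 0.80), Hsd17b3 for Sod2 (r = 0.83), Rbbp7 for Mt3 (r = 0.79) and Omd for Hmox2 (r = 0.80).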

How the data were processed

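Spotted-oligonucleotide arrays were hybridized with treated (Cy5) and control (Cy3) RNA. The authors deposited a linear treated-over-control ratio per probe on every array. No scanner file was used. The sources used here do not say how the authors corrected the background, normalized or filtered. The array medians of the deposited ratios were 0.997 to 1.02, and their log2 was taken without centring. Between 28 and 105 of 5088 probes had no ratio on an array. Array data hold no read depth, and the number of arrays limits the precision. No per-sample column was left out.

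Probes were named from the platform annotation, which can be old. Of 5088 probes, 4423 had 1 symbol, 2 had several and 663 had none. The gene identifiers of 4375 were found in the GRCr8 gene table, with 0 symbols changed. Each probe was tested separately where at least 2 of 3 arrays had a ratio.

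Testing was done in R 4.3.3 with limma 3.58.1 (lmFit and eBayes, 1 mean for each time, all 15 arrays, two-sided, adjusted p under 0.05 by Benjamini-Hochberg over every probe tested), with statmod 1.5.0 for the robust prior. The tests were each time against 0, 18 h minus 1 h and an F test over the 5 times. The differences of 6 h minus 1 h and of 18 h minus 12 h, and a fit without the wide arrays of 6 and 12 h, were chosen after seeing the data. The scripts were tested on simulated data. Motif searches used all 33469 RefSeq promoters of 300 bases. A planned comparison of the member proteins was not run. Plots were drawn with matplotlib 3.10.9.

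Groups were taken from the time in the labels. All probes of the 8 genes are described. From each list up to 4 further genes with the smallest adjusted p at 18 h among those called could be named, and for 1 probe of each member the 3 named probes most like it over the 15 arrays. The members and lists were chosen with earlier results of these data known. Same-numbered arrays did not deviate together, so the replicate number was not used. Alternatives were other centring, scaling, plate medians, a replicate block, array weights, a robust prior, fewer arrays, the methods' t-test, other filters and a stricter threshold.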

Additional observations from a re-analysis of the deposited data

Results flagged for a closer look

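Differences between times that passed the threshold in limma are listed here. Between 1 and 18 h the log2 ratio differed by 0.92 for Sod3, by 0.92, 1.23 and 0.83 for the Mt1 probes 22G06, 52F03 and 52G03, and by 1.06 for Hmox1. Between 1 and 6 h it differed by 0.84 for Sod3. In the F test over the 5 times the adjusted p was 0.00162 for Sod3, 0.0457 for Mt1 probe 22G06, 0.0356 for Mt1 probe 52G03 and 0.00467 for Hmox1. With 3 arrays in a group no test for a single outlying array was made.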

How the results depend on the processing

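The 6 calls at 18 h held without any 1 array of 18 h (6 to 6), as at 1 h and 3 h (0 to 0). Leaving out 1 array of the time gave 1 to 1 calls at 6 h and 3 to 3 at 12 h, and leaving out all arrays of a replicate number gave 0 to 0 for 18 h minus 1 h, 6 h minus 1 h and the F test, with fewer arrays in the fit. Scaling arrays to a common spread gave 1 call at 1 h (0 without scaling), 3 at 12 h and 0 for 18 h minus 1 h, 6 h minus 1 h and the F test. Array weights gave 1 at 1 h, 1 at 3 h and 3 at 12 h, and at 6 h 2 calls of which 1 was Mt3 lower at -1.73 (adjusted p = 0.0265). Centring on array medians gave 1 at 6 h. With only the arrays of the times compared the counts were 0 at 6 h, 0 at 12 h, 2 at 18 h, 1 for 18 h minus 1 h and 0 for 6 h minus 1 h. The methods' t-test after Benjamini-Hochberg adjustment gave 0 at 6, 12 and 18 h, and unadjusted 4 at 3 h, where 758 of 5050 probes passed in all. A threshold of 0.01 gave 1 at 6 h, 3 at 12 h, 2 for 18 h minus 1 h, 0 for 6 h minus 1 h and 2 in the F test. Without the 3 wide arrays of 6 and 12 h, 1 probe was called at 6 h and 0 for 6 h minus 1 h, and 12 h could not be fitted. The causes were not tested. Replicate numbers were shared between times, but same-numbered arrays correlated between -0.06 and 0.06 in their deviations and 2 of 15 correlated best with their own number. With the replicate block there were 0 calls for 6 h minus 1 h, 2 in the F test, and 4 at 12 h and 4 for 18 h minus 1 h, where Mt1 52F03 was lost both times. The block changed no other call.

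Of 995 values of single probes under an alternative, 865 kept direction and side of the threshold, 84 lost a call, 13 gained one and 33 changed sign. None of those 33 passed the threshold in either fit. Calls gained and lost do not rest on 1 threshold, as the alternatives include the methods' t-test at an unadjusted p and the threshold of 0.01. Centred on plate medians, Sod2 was at -0.0536 and Mt1 52G03 at 0.0490 at 1 h, Sod1 at 0.0305 at 3 h, Mt1 52G03 at 0.0667 at 6 h, and Sod1 at -0.0158 at 18 h and -0.0842 for 18 h minus 1 h. Centred on array medians, Hmox1 was at -0.00577 at 3 h. With array weights at 6 h, Mt1 52G03 was at 0.00734 and Hmox2 at -0.0124. After scaling, 18 h minus 1 h was -0.000958 for Sod1 and -0.110 for Hmox2, and 6 h minus 1 h was -0.0576 for Hmox1. Without the wide arrays, 6 h values were 0.0415 for Mt1 52G03 and -0.0484 for Hmox2, and 6 h minus 1 h was -0.0392 for Hmox1. Leaving out arrays gave ranges across 0 for Sod2 (-0.00246 to 0.129) and Mt1 52F03 (-0.154 to 0.284) at 1 h. At 3 h they were -0.0599 to 0.0433 for Sod1, -0.0188 to 0.110 for Mt1 52G03, -0.0446 to 0.050 for Hmox1 and -0.131 to 0.121 for Hmox2. At 6 h they were -0.108 to 0.0136 for Sod1, -0.00573 to 0.486 for Sod2, -0.140 to 0.0415 for Mt1 52G03 and -0.0484 to 0.193 for Hmox2, and at 12 h -0.0203 to 0.230 for Hmox2. For 18 h minus 1 h they were -0.0168 to 0.108 for Sod1, -0.217 to 0.514 for Mt3 and -0.372 to 0.390 for Hmox2. For 6 h minus 1 h they were -0.0202 to 0.673 for Mt1 52F03, -0.0117 to 0.0694 for Mt1 52G03 and -0.0406 to 0.204 for Hmox1.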
